A study of Mus musculus with 6 samples.

Results

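The transcripts described here encode the machinery that makes and uses microRNAs and that degrades mRNA: microRNA processing factors, Argonaute and GW182 proteins, nonsense-mediated decay factors, deadenylases, and enzymes of decapping and exonucleolytic decay. The list held 39 genes. Each was represented by its brightest probe set with a single gene in the platform annotation, that is, the one with the highest mean over the 6 arrays. Such a probe set was found for 36 of the 39, out of 18195 genes measured in this way. Cnot1, the scaffold of the CCR4-NOT deadenylase, was covered here by probe sets assigned to more than 1 gene, and Upf3a and Upf3b, which link Upf2 to the exon junction complex, matched no annotated probe set, so these 3 were not analysed here.

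RNA came from CAD cells, a mouse neuroblastoma line with catecholaminergic and neuronal features. One group of 3 biological replicates received RIPmiR-124a-2, a plasmid from which the microRNA precursor miR-124a-2 is expressed, and the other group of 3 received the empty RI vector. All 6 cultures were thus transfected cells of the same line. The time between transfection and harvest and the share of cells that took up plasmid are not given in the sources used here. Because each array measured a whole culture, a smaller share of responding cells and a smaller change per cell cannot be told apart.

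MicroRNA precursors are cut in the nucleus by Drosha with its partner Dgcr8, carried out by Exportin-5 (Xpo5), and cut again by Dicer1 with Tarbp2 or Prkra. The product is loaded into an Argonaute protein, whose partner GW182 (Tnrc6a, Tnrc6b or Tnrc6c) recruits the PAN2-PAN3 and CCR4-NOT deadenylases, after which the mRNA is decapped by Dcp2 and degraded by Xrn1. Nonsense-mediated decay, run by the Upf and Smg proteins, removes mRNAs with premature stop codons. In cells of the nervous system this pathway meets miR-124 through Ptbp1, a splicing repressor and reported miR-124 target whose activity sends some neuronal mRNAs, such as those of Ptbp2 and Dlg4, to nonsense-mediated decay.

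Arrays gave log2 signals with a median of 4.72 to 4.83 over 45101 probe sets, and correlations between arrays over all genes ran from 0.989 to 0.998. Probe sets for a bacterial transcript outside the spike-in mix, a guide to background, averaged 3.37 to 3.50. Poly-A spike-in controls were highest on the replicate 1 arrays of both groups (5.96 and 5.97, against 5.57 to 5.71). The labels name no batch, and poly-A batch here means only this split of the arrays by control signal. Ptbp1 was lower in every plasmid array (10.59 to 11.02) than in every empty vector array (11.98 to 12.07), in the direction of the group labels. Of 9 measured markers of a catecholaminergic neuronal line, 8 lay above the array median on all 6 arrays, while the vesicular transporter gene Slc18a2 lay below it on all 6 (3.70 to 4.16). Of 18 markers of astrocytes, oligodendrocytes, microglia, fibroblasts and endothelium, 3 lay above the median on all arrays and 7 below it on all. The rest lay on both sides of it. The highest of the 18, Csf1r (5.93 to 6.42), exceeded the catecholaminergic marker Ddc in the empty vector arrays (5.09 to 5.39). Empty vector replicate 1 and plasmid replicates 1 and 2 had narrower distributions (interquartile range 3.06 to 3.10, here narrow arrays) than the other 3 (3.26 to 3.35, wide arrays). Values within the narrow arrays thus rest on 1 empty vector array, and those within the wide arrays on 1 plasmid array. Plasmid replicate 2 stood apart for the genes described here: its signal was the lowest of the 6 arrays for 19 of the 36 members (52.8%), against 23.1% of all genes and 27.5% of genes passing a filter on dim genes (above the array median on at least 3 arrays), as all 36 members did. It was the highest for 0 members, against 18.8% of all genes. Its median difference from the mean of the other plasmid arrays was -0.20 on the log2 scale for the members, -0.07 for the genes passing that filter and -0.03 for all genes. Values without that array are given beside each of the 19 members, and 7 of the 19 had the opposite sign without it. Because these 19 were picked for being lowest on that array, leaving it out raises each of their values by construction. The direction of these shifts is therefore no separate result.

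None of the 36 members passed the test between the groups. In limma with Benjamini-Hochberg adjustment over all 18195 genes, 0 members had an adjusted p under 0.05, where 0.907% of all genes did (0.209% higher and 0.698% lower with miR-124a-2). With the 2 sets of narrow and wide arrays as a term in the fit, 0 members passed again, where 1.42% of all genes were higher and 1.58% lower. The smallest adjusted p among the members was 0.300 in the fit without that term, and 2 of the 36 had an unadjusted p under 0.05, against 10.9% of all genes. Groups did not overlap for 4 members, 2 higher and 2 lower, where 16.3% of all genes did not overlap. Fold changes of the members, plasmid over empty vector, ran from -0.38 to 0.27 on the log2 scale with a median of -0.01, beside a median of 0.02 for all genes. Their median size was 0.06 against 0.10 for all genes, 26 of the 36 were smaller than 0.1 in size, and 0 exceeded 0.5, as 3.12% of all genes did. Among the 11859 genes that passed the filter on dim genes 15.4% had an unadjusted p under 0.05 and 4.64% a change above 0.5. Groups did not overlap for 20.7% of those genes, beside 11.1% of the members.

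How large a change could have gone unseen is given by the 95% interval of each fold change, not adjusted for the number of genes. These intervals had a median half-width of 0.25 and lay between -0.98 and 0.50 for the members. All 36 excluded a 2-fold change in either direction, and 34 excluded a change of 1.5-fold. The exceptions were Ago3 and Xrn1, whose intervals reached 1.5-fold only on the lower side (-0.98 to 0.22 and -0.62 to 0.05). These bounds depend on the arrays used. The Ago3 interval passed 2-fold in 9 of 16 alternative settings, reaching -1.46 with replicates 2 and 3 only and -1.21 without plasmid replicate 1. With replicates 2 and 3 only, 27 of the 36 intervals excluded 1.5-fold. With the most variable probe set per gene 25 did, and Ddx6 and Pabpc1 also passed 2-fold. RMA, the processing method of the deposited values, compresses differences of dim probe sets, which the intervals do not account for. The data thus bound these changes in array signal and do not show that any of the transcripts stayed the same.

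**Figure D1:**
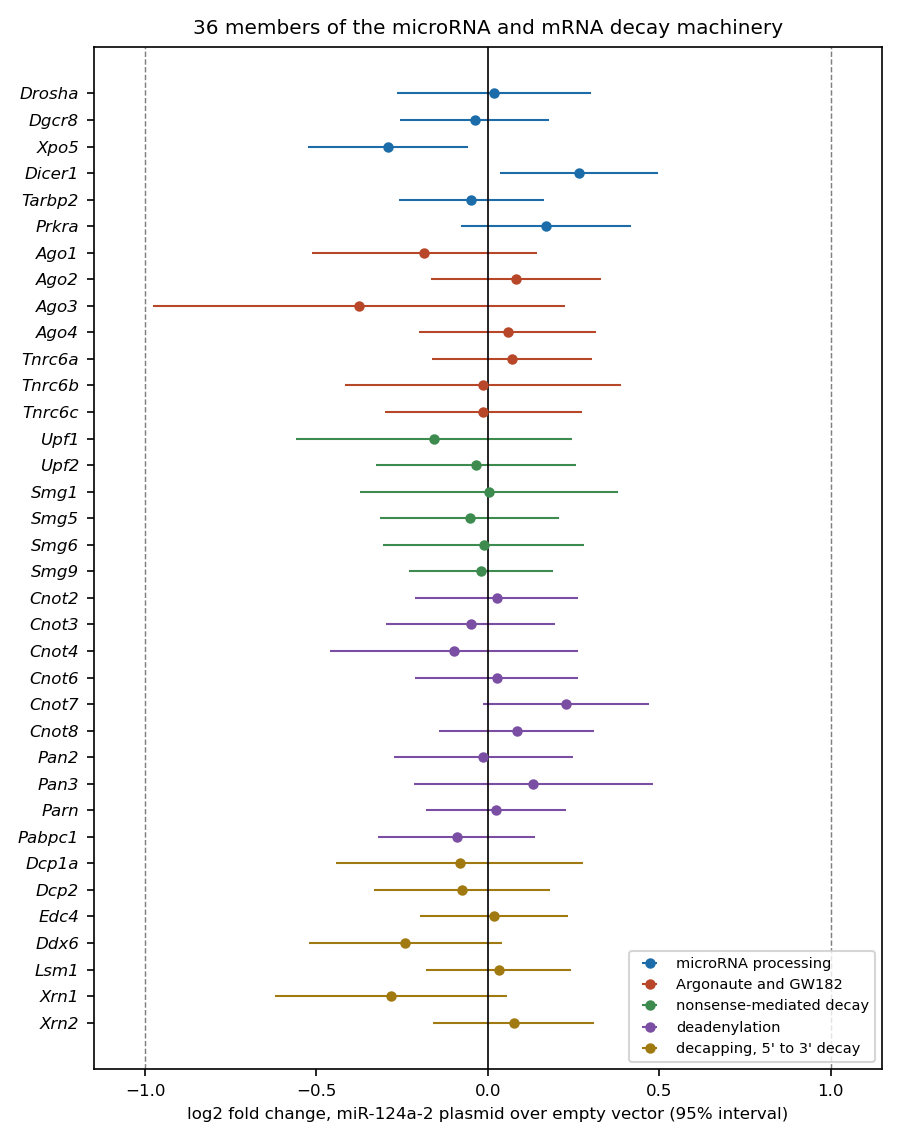
Log2 fold change (miR-124a-2 plasmid over empty vector, x axis) of the 36 members on separate rows, coloured by role; points are limma estimates from 3 arrays per group and bars their 95% intervals, with dashed lines at a 2-fold change. The intervals of all 36 lie inside the dashed lines, and those of Xpo5 and Dicer1 do not include 0.

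Among the 6 microRNA processing genes, the export receptor and the cytoplasmic nuclease had the values farthest from 0, in opposite directions. These 2 of the 6 separated the groups (33.3%), beside 16.3% of all genes and 20.7% of genes passing the filter on dim genes. Over all 36 members the share was 11.1%. Xpo5, which carries precursor hairpins out of the nucleus, read 8.53, 8.50 and 8.58 (log2 signal) in empty vector replicates 1 to 3 and 8.34, 8.10 and 8.30 in plasmid replicates 1 to 3. All plasmid arrays were lower than all empty vector arrays, with plasmid replicate 2 the lowest. This difference of -0.29 on the log2 scale (SE 0.10, 95% interval -0.52 to -0.06), or 1.22-fold lower, missed the threshold (limma adjusted p = 0.300). Across 16 alternative settings its adjusted p was 0.153 to 0.767. The narrow arrays gave -0.31, the wide arrays gave -0.25, and the value was -0.22 without plasmid replicate 2. The second Xpo5 probe set also separated the groups, with -0.20.

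Dicer1, which cuts the exported hairpin into the mature duplex, read 7.38, 7.47 and 7.53 in the empty vector arrays and 7.82, 7.76 and 7.61 in the plasmid arrays. Here every plasmid array was above every empty vector array, and plasmid replicate 3 lay nearest to the controls. At 0.27 on the log2 scale (SE 0.10, 95% interval 0.04 to 0.50) the difference missed the threshold, with an adjusted p of 0.353 that spanned 0.196 to 0.773 in the 16 settings. Its value was 0.41 within the narrow arrays and 0.10 within the wide ones. The second Dicer1 probe set had 0.28, but there the groups overlapped. The intervals of Xpo5 and Dicer1 were the only 2 among the members that left out 0.

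The nuclear pair differed less. Drosha, the nuclease that frees the hairpin, had a log2 fold change of 0.02 (95% interval -0.26 to 0.30), and Dgcr8, its RNA-binding partner, one of -0.04 (-0.26 to 0.18). Of the double-stranded RNA-binding partners of Dicer1, Tarbp2 had -0.05 and Prkra 0.17 (95% interval -0.08 to 0.42, adjusted p = 0.678). For Prkra the lowest plasmid array (7.32) lay below the highest empty vector array (7.39), and the groups overlapped for Drosha, Dgcr8 and Tarbp2 as well. Without plasmid replicate 2, where each of these 3 was lowest, the values were 0.11, -0.01 and -0.01.

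None of the 7 Argonaute and GW182 genes separated the groups, where 16.3% of all genes did. Ago3, 1 of the 4 mammalian Argonautes, had the largest fold change in size of all members and also the widest spread. It read 5.11, 5.21 and 5.44 in the empty vector and 5.31, 4.18 and 5.14 in the plasmid arrays, so plasmid replicates 1 and 3 lay inside the range of the controls and replicate 2 lay far below them. Its fold change was -0.38 (SE 0.26, 95% interval -0.98 to 0.22, adjusted p = 0.716), and -0.03 without plasmid replicate 2. It was -0.60 without plasmid replicate 1 and -0.67 with replicates 2 and 3 only. All 5 Ago3 probe sets were lower with miR-124a-2 (-0.38 to -0.05), 4 of them with a mean below the median of every array.

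Ago1 followed the same array. Its single probe set read 7.06, 7.16 and 7.15 in the empty vector and 7.11, 6.60 and 7.09 in the plasmid arrays, so that plasmid replicates 1 and 3 lay within the range of the controls. The log2 fold change of -0.19 (SE 0.14, adjusted p = 0.763) came to -0.02 without plasmid replicate 2. Ago2, the Argonaute that can cut its target, had 0.08 (95% interval -0.17 to 0.33), with all 4 probe sets slightly above 0 (0.01 to 0.18). Ago4 had 0.06 and a mean signal near the array median (4.80). Among the GW182 genes, which encode the scaffolds between Argonaute and the deadenylases, Tnrc6a, Tnrc6b and Tnrc6c had 0.07, -0.01 and -0.01. Tnrc6b too was lowest in plasmid replicate 2 (6.45, against 6.74 to 7.20 on the other 5 arrays) and had 0.18 without it. Tnrc6c, also lowest there, had 0.11.

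**Figure D2:**
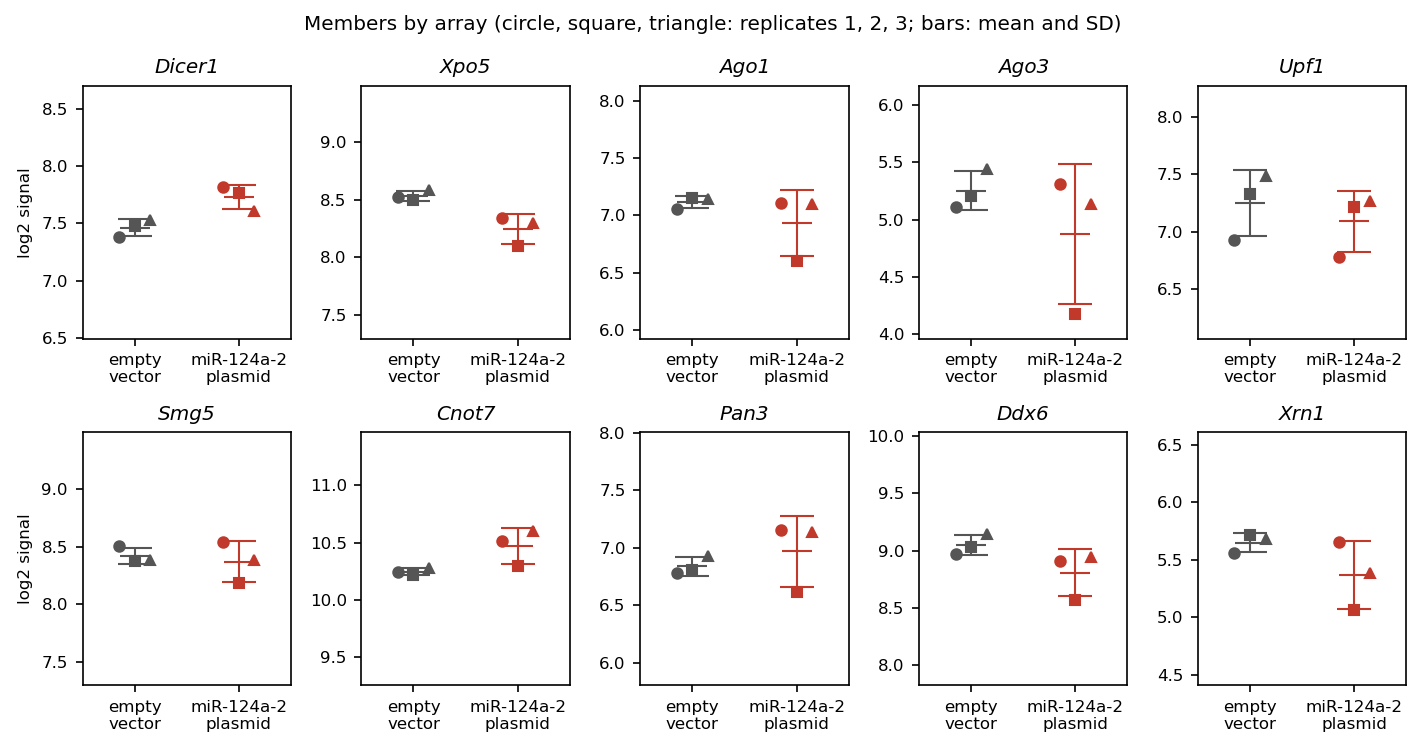
Log2 signal of 10 members on each array (y axis), the largest changes of each role group, with empty vector in grey and miR-124a-2 plasmid in red; circles, squares and triangles are replicates 1, 2 and 3, and bars give mean and SD of 3 arrays. Groups do not overlap for Dicer1, Xpo5, Cnot7 and Ddx6, and the square of the plasmid group is the lowest point for Xpo5, Ago1, Ago3, Smg5, Pan3, Ddx6 and Xrn1.

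The 6 measured nonsense-mediated decay genes all had fold changes within 0.16 of 0. Of these, 0 separated the groups, where 16.3% of all genes did. Upf1, the helicase at the centre of the pathway, read 6.93, 7.33 and 7.49 in the empty vector and 6.78, 7.22 and 7.27 in the plasmid arrays. Replicate 1 was the lowest array in both groups, and the mean of those 2 arrays was 0.47 below the mean of the other 4. The group difference was -0.16 (SE 0.18, 95% interval -0.56 to 0.24, adjusted p = 0.851). Narrow arrays alone gave 0.07, wide arrays alone -0.14, and a fit with the array set as a term gave -0.03. Leaving out 1 array gave values from -0.32 (without empty vector replicate 1) to -0.00324 (without plasmid replicate 1).

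Smg5, an adaptor that brings decay enzymes to phosphorylated Upf1, read 8.50, 8.38 and 8.39 in the empty vector and 8.54, 8.19 and 8.38 in the plasmid arrays. The ranges overlapped, with plasmid replicate 2 below the rest, and the fold change was -0.05 (95% interval -0.31 to 0.21, adjusted p = 0.938). Upf2, which activates Upf1, had -0.04, and Smg1, the kinase that phosphorylates it, had 0.00 (-0.37 to 0.38). Smg6, the endonuclease of the pathway, had -0.01 and Smg9, a subunit of the Smg1 kinase complex, -0.02. For Smg9 the 95% interval was -0.23 to 0.19. Upf2, Smg1, Smg5 and Smg6 were lowest in plasmid replicate 2, and without it their values were 0.07, 0.16, 0.04 and 0.11. That these rose was set by leaving out their lowest array.

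Of the 10 measured deadenylation genes, Cnot7 alone separated the groups (10%, beside 16.3% of all genes). Cnot7, a catalytic subunit of CCR4-NOT, read 10.24, 10.22 and 10.27 in the empty vector and 10.52, 10.30 and 10.60 in the plasmid arrays. All plasmid arrays were higher, although replicate 2 exceeded the highest control only slightly. The difference of 0.23 (SE 0.11, 95% interval -0.02 to 0.47) missed the threshold, with an adjusted p of 0.504 and a span of 0.251 to 0.973 in the 16 settings. It was 0.31 without plasmid replicate 2, and the other 2 Cnot7 probe sets had 0.15 and 0.07. Its paralog Cnot8 had 0.08 (95% interval -0.14 to 0.31), and the other catalytic type, Cnot6, had 0.03.

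Pan3, the adaptor of the PAN2 deadenylase, read 6.78, 6.81 and 6.93 in the empty vector and 7.16, 6.61 and 7.14 in the plasmid arrays. Plasmid replicates 1 and 3 lay above all controls and replicate 2 below all of them, which gave 0.13 (SE 0.15, adjusted p = 0.857) and 0.31 without replicate 2 (adjusted p = 0.340, with a span of 0.340 to 0.995 in the 16 settings). The other 3 Pan3 probe sets were below 0 (-0.07, -0.08 and -0.27), the last with a mean signal near background (3.52). Pan2, the nuclease itself, had -0.01. The CCR4-NOT subunits Cnot2 and Cnot3 had 0.03 and -0.05, the ubiquitin ligase subunit Cnot4 -0.10, and the separate deadenylase Parn 0.02. Without plasmid replicate 2, their lowest array, Cnot2 had 0.09 and Cnot4 0.05. Pabpc1, the poly(A)-binding protein that coats the tail, had -0.09 (95% interval -0.32 to 0.14) in its brightest probe set. Its dimmer probe set had -0.48 (adjusted p = 0.635 over all single-gene probe sets).

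Among the 7 genes of decapping and exonucleolytic decay, Ddx6 alone separated the groups (14.3%, beside 16.3% of all genes). It was lower in every probe set. Ddx6 is a DEAD-box helicase that links CCR4-NOT to decapping and to translational repression. It read 8.97, 9.03 and 9.14 in the empty vector and 8.91, 8.57 and 8.95 in the plasmid arrays, with plasmid replicate 2 the lowest. The difference of -0.24 (SE 0.12, 95% interval -0.52 to 0.04) missed the threshold, with an adjusted p of 0.558 and a span of 0.188 to 0.931 in the 16 settings. It was -0.12 without replicate 2. Its 3 dimmer probe sets had -0.74, -0.30 and -0.31, the last with a mean signal at background (3.36). Averaging the 4 probe sets gave -0.40, with the smallest unadjusted p of any member in the 16 settings (0.00552), and this too missed the threshold (limma adjusted p = 0.188).

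Xrn1, the cytoplasmic exonuclease that removes decapped mRNA, read 5.56, 5.72 and 5.68 in the empty vector and 5.65, 5.06 and 5.39 in the plasmid arrays. Plasmid replicates 2 and 3 lay below all controls and replicate 1 among them. Its difference was -0.28 (SE 0.15, adjusted p = 0.573), it was -0.13 without replicate 2, and the other Xrn1 probe set had -0.01. Without plasmid replicate 1 it was -0.43 (unadjusted p = 0.0138, limma adjusted p = 0.341). With replicates 2 and 3 only it was -0.47 (unadjusted p = 0.0173, limma adjusted p = 0.381). Xrn2, its nuclear counterpart, had 0.08. The decapping enzyme Dcp2 had -0.07, its cofactor Dcp1a -0.08 (-0.00137 and 0.10 without plasmid replicate 2), the decapping scaffold Edc4 0.02, and Lsm1, part of the ring that binds deadenylated mRNA, 0.03.

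The 36 members had 103 single-gene probe sets in all. In a fit on all 34958 single-gene probe sets, where 0.338% passed at an adjusted p under 0.05, 0 of the 103 did. Of the 31 members with more than 1 probe set, 16 had all of them on the same side of 0 and 15 had both signs. These counts include probe sets at background, such as the dimmer one of Prkra (mean 3.05) and the dimmest of Ddx6 (mean 3.36). The probe sets agreed in sign for Xpo5, Dicer1, Ago2, Ago3, Cnot4, Cnot7 and Ddx6, among others. For Tnrc6c they ran from -0.24 to 0.29 and for Smg1 from -0.32 to 0.02, so which probe set stands for these genes sets the sign of their value.

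**Figure D3:**
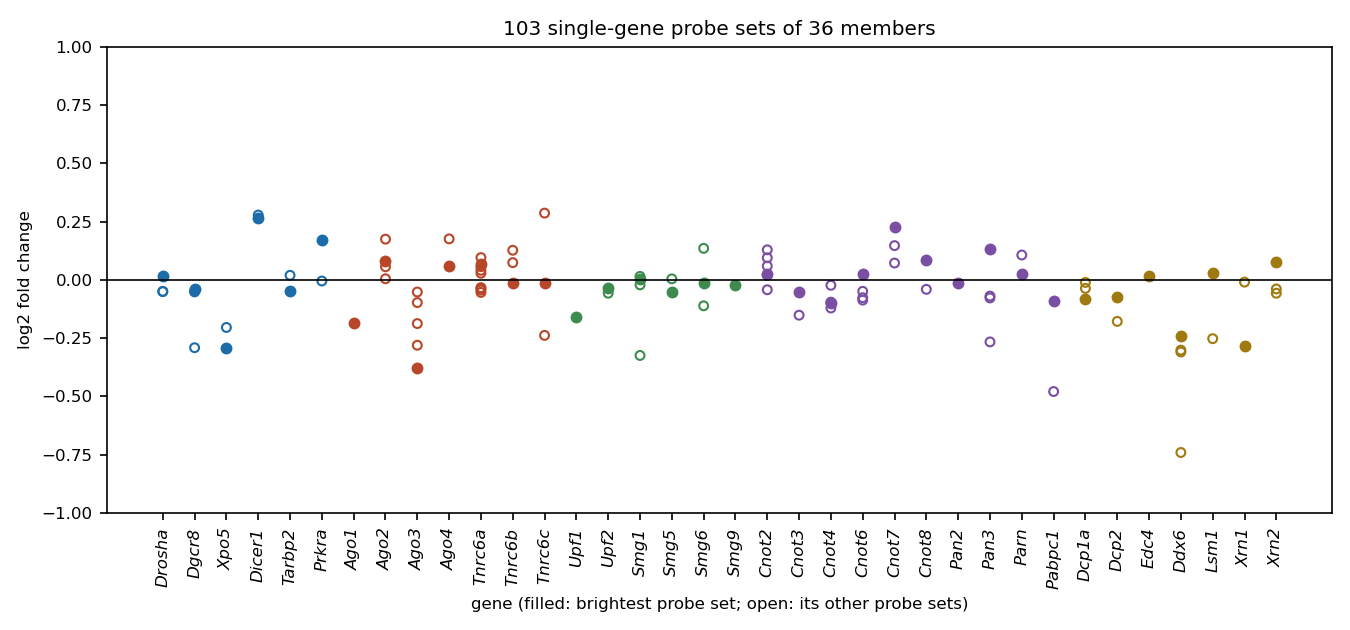
Log2 fold change (y axis) of each of the 103 single-gene probe sets of the 36 members (x axis), coloured by role as in the plot of fold changes; filled points are the brightest probe set of a gene and open points its others. The lowest open point is a dim probe set of Ddx6 at -0.74, and all 4 points of Ddx6 and both of Xpo5 lie below 0, while both of Dicer1 and all 3 of Cnot7 lie above it.

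Other genes of these pathways were taken from 2 further lists of cofactors and regulators. Of 36 measured genes around the microRNA pathway (39 listed), Wtip fell, 0 rose and 35 did not pass. Wtip, a LIM-domain protein of the Ajuba family that has been linked to microRNA silencing, read 7.68, 7.80 and 7.85 in the empty vector and 6.66, 6.97 and 7.08 in the plasmid arrays, without overlap. On the log2 scale it fell by 0.87 (SE 0.13, limma adjusted p = 0.0219). Narrow arrays alone gave -0.86 and wide arrays alone -0.75. The call was lost on leaving out any single array other than plasmid replicate 3, with replicates 2 and 3 only, and with the most variable probe set per gene. Its adjusted p spanned 0.00901 to 0.193 in the 16 settings. The median of the list was -0.01, and 12 of the 36 separated the groups (33.3%). That share was 16.3% for all genes and 20.7% for genes passing the filter on dim genes.

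Of 73 measured genes around mRNA decay (78 names listed), Zfp36l2 fell, 0 rose and 72 did not pass. Zfp36l2, which binds AU-rich elements and recruits deadenylases, read 9.16, 9.41 and 9.64 in the empty vector and 7.91, 7.59 and 8.41 in the plasmid arrays. In its brightest probe set it fell by 1.44 on this scale (SE 0.21, limma adjusted p = 0.0219, with a span of 0.00304 to 0.239 in the 16 settings), while the other 2 had -0.56 and 0.07. This call was lost when probe sets were averaged or the most variable one was taken, with replicates 2 and 3 only, and without empty vector replicates 2 or 3 or plasmid replicates 1 or 2. In this list 55 of 73 values were below 0 (median -0.06), beside 8328 of 18195 for all genes. Groups separated for 18 of the 73 (24.7%), beside 16.3% of all genes and 20.7% of genes passing the filter on dim genes.

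The 5 genes that follow did not pass in the same fit and were picked after their values were seen, because they passed under at least 1 alternative setting. Lin28a, which blocks maturation of the let-7 microRNAs, read 8.34, 8.07 and 8.13 in the empty vector and 9.13, 8.66 and 8.87 in the plasmid arrays, all of the latter higher. Its log2 fold change was 0.71 (adjusted p = 0.0624), and it passed in 6 of 16 alternatives, among them those with the array set or the poly-A control batch as a term (adjusted p of 0.0187 to 0.334 over the 16). Its other probe set had 0.43. Fxr1, an RNA-binding protein of the fragile X family, had -0.55 (adjusted p = 0.0853) and passed in 5 of 16, while its other probe sets had -0.48, 0.10 and -0.41. Exosc8, a ring subunit of the RNA exosome, had -0.49 (adjusted p = 0.0712) and also passed in 5, while its dimmer probe set had -0.11.

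Pnrc1, a nuclear coactivator and paralog of the decapping cofactor Pnrc2, had 0.61 (adjusted p = 0.120) and passed in 4 alternatives. Its dimmer probe sets had 0.26 and -0.02. Trim71, a stem cell ubiquitin ligase that acts with Argonautes, had 0.45 (adjusted p = 0.203) and passed only without plasmid replicate 3. Over these settings the adjusted p spanned 0.0207 to 0.388 for Fxr1, 0.0284 to 0.373 for Exosc8, 0.00667 to 0.351 for Pnrc1 and 0.0307 to 0.570 for Trim71. None of the 36 members passed under any of the same 16 settings, where the smallest adjusted p was 0.153 (Xpo5). The genes above were picked for passing in some setting, so their contrast with the members is set by that choice. With replicates 2 and 3 only, or without empty vector replicate 2 or 3, no gene of the array passed at all.

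**Figure D4:**
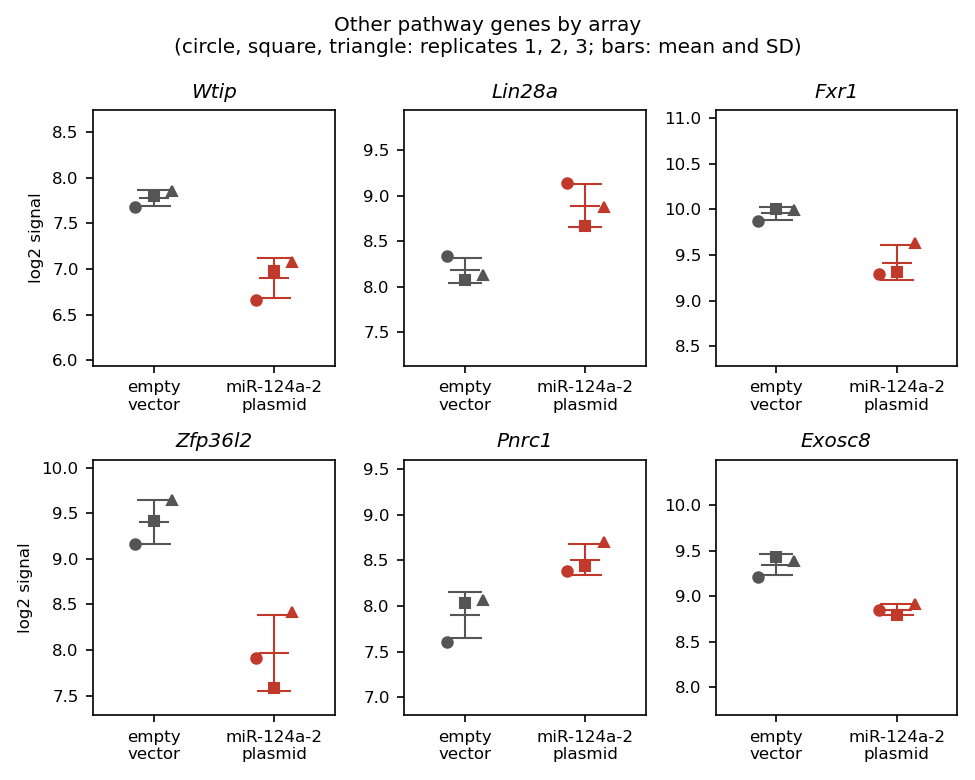
Log2 signal (y axis) of 6 genes of the further lists on each array, with empty vector in grey and miR-124a-2 plasmid in red; circles, squares and triangles are replicates 1, 2 and 3, and bars give mean and SD of 3 arrays. Groups do not overlap for any of the 6. Wtip and Zfp36l2, with fold changes of -0.87 and -1.44, passed, and Lin28a, Fxr1, Pnrc1 and Exosc8 did not.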

How the data were processed

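The authors deposited log2 values for 45101 probe sets on each of 6 arrays. RMA is the method named in the submitters' processing notes, without a version, and the probe definitions are not given in the sources used here. Affymetrix arrays carried biotinylated cRNA from 6 ug of total RNA, per the labels. RMA compresses differences of dim probe sets, and 3 arrays per group limit the precision.

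Of the probe sets, 34958 had 1 gene in the platform annotation, 932 several and 9211 no listed gene. The brightest single-gene probe set stood for each of 18195 genes. limma 3.58.1 in R 4.3.3 (a two-sided moderated test, tested on simulated data) compared the groups over all these genes at a Benjamini-Hochberg adjusted p under 0.05. An exact permutation test of 3 against 3 arrays cannot go below 0.1 and was not used. The p-values measure the spread between the labelled biological replicates.

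Members, lists and settings were chosen with earlier results of these data known. All members are named, with array values for those at an unadjusted p under 0.05 and for the 2 largest changes in size of each role. Genes of the further lists are named where they passed, and 5 were added after their values were seen. The 16 alternatives added a block (replicate number, array set, poly-A batch), left out arrays, changed the normalization or the variance model, filtered dim genes, or summarised probe sets otherwise. The sequence of miR-124 is not shown here.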

Additional observations from a re-analysis of the deposited data

How the results depend on the processing

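The count of members passing was 0 under all 16 alternatives in limma, with 1 to 4 members at an unadjusted p under 0.05, and 14 of the 36 kept the sign of their value throughout. The median of the members lay between -0.06 and 0.06 in these fits and at -0.01 and 0.03 within the narrow and wide arrays.

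Counts over all genes moved far more. From 165, they came to 457 with the replicate number as a block (replicate block), 546 with a block for the array set, 290 with a block for the poly-A batch, 311 with quantile normalization, 266 with an intensity trend, 99 with median centring, 51 with the most variable probe set, and 0 with replicates 2 and 3 only (1825 at an unadjusted p under 0.05). Leaving out 1 array gave 0 to 343, with 0 without empty vector replicate 2 or 3 (1285 and 1313 at an unadjusted p under 0.05). Genes called around the microRNA pathway, 1 in the reported fit, were 3 with the replicate block, the array set, quantile normalization or the intensity trend, 2 with the poly-A batch or the mean of probe sets, 0 with replicates 2 and 3 only or the most variable probe set (4 and 5 at an unadjusted p under 0.05), and 0 to 3 with 1 array left out. Genes called around mRNA decay, also 1, were 3 with each of the 3 blocks or quantile normalization, 2 with the intensity trend, 0 with replicates 2 and 3 only, the mean of probe sets or the most variable one (9, 9 and 10), and 0 to 1 with 1 array left out. The cause of these shifts was not tested. Deviations from the group means correlated at 0.54 between the replicate 1 arrays and 0.55 between the replicate 3 arrays but at -3.9e-05 between the replicate 2 arrays, so the numbers were not taken as pairs. The replicate block changed no call among the members. Signal near or below the array median limits Ago4 and every probe set of Ago3. The brightest one of Ago3 had a mean of 5.06, and 4.18 on plasmid replicate 2.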

Other observations

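The replicate 1 arrays of both groups, which also had the highest poly-A controls (5.96 and 5.97, against 5.57 to 5.71), stood apart for 9 of the 36 members (25%), beside 25.1% of all genes. Signs of RNA quality moved with these arrays. Their log2 difference between the 3' and 5' probe sets of the Tfrc control was 1.34 and 1.55, against 0.95 to 1.09, and their log2 signal for 18S rRNA was 5.57 and 5.83, against 4.71 to 5.23. The part of RNA quality in the members' values was not tested. Both lay below the other 4 arrays for Upf1, Cnot3, Pan2 and Xrn2, by 0.47, 0.20, 0.21 and 0.15 in the mean. They lay above the other 4 for Dgcr8, Smg5, Cnot2, Cnot8 and Edc4, by 0.11, 0.19, 0.14, 0.14 and 0.12. Of all genes, 8.58% were lower and 16.5% higher on both of these arrays than on the rest. The difference between the groups was smaller in size for all 9, for example -0.16 for Upf1 and 0.08 for Cnot8. Because these 9 were picked by the separation of the replicate 1 arrays, that comparison is largely set by the choice.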
